A study of Mus musculus with 6 samples.

Results

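The genes described here are 40 mouse genes of the endoplasmic reticulum (ER) and the early secretory pathway, followed in primary hepatic stellate cells that carry a HAS2 transgene and in stellate cells that lack Has2. They were taken as a named list, mapped from NCBI gene identifiers to mouse symbols, and all 40 were found among the 17909 identifiers listed in at least 1 library. By role they comprise 16 luminal chaperones and folding enzymes, 5 stress sensors and transcription factors, 6 genes of the ATF4 branch, 6 genes of ER-associated degradation (ERAD), 2 subunits of the Sec61 translocon and 5 genes of the COPII coat and cargo export. None of them was missing from any library.

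RNA was sequenced on BGISEQ-500 in 6 libraries, 3 per genotype, from male C57BL/6 mice of 24 weeks. The HAS2_Tg libraries (replicates 4, 5 and 6) came from mice with a human HAS2 transgene under the alpha smooth muscle actin promoter, which is active in smooth muscle and in activated stellate cells and so is not limited to the liver. The Has2_KO libraries (replicates 7, 8 and 9) came from mice in which floxed Has2, the gene of a hyaluronan synthase, was deleted with Lrat-Cre, a driver of hepatic stellate cells. In both groups the cells were released by collagenase and pronase perfusion, collected on a Nycodenz gradient, depleted of macrophages with Cd11b microbeads, allowed to attach for 4 h and kept for 14 h more in medium with 10% serum. A wild-type group was not analysed here, so each difference is between the 2 genotypes and cannot be assigned to either. The labels do not say whether the libraries of a group came from separate animals or cultures, so p-values measure only the spread between these libraries, which may be technical.

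Secreted and membrane proteins enter the ER through the Sec61 channel, are folded by luminal chaperones and disulfide isomerases, and leave in COPII vesicles, while proteins that fail to fold are returned to the cytosol and degraded by ERAD. Sensors in the ER membrane adjust this capacity in the unfolded protein response. IRE1 (gene Ern1) splices Xbp1 mRNA, ATF6 is cut to release a transcription factor, and PERK (gene Eif2ak3) slows translation and raises ATF4. Stellate cells are the main source of fibrillar collagen in the injured liver, a large cargo that places a heavy load on this pathway.

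Total expected counts lay between 11961726 and 12423220 per library. The first principal component, with 88% of the variance, separated the genotypes, and the second, with 5.09%, set HAS2_Tg replicate 4 apart from the other HAS2_Tg libraries. Has2 itself had 847, 889 and 835 counts in HAS2_Tg libraries and 1 count in each Has2_KO library, which checks the knockout label. Reads of the human transgene are counted only where they align to the mouse gene, so these counts do not measure the transgene. Of 15 stellate cell markers, 12 were higher and 0 lower in HAS2_Tg, with a summed level of 11373 to 12262 CPM (counts scaled to library size, TMM-normalised) in HAS2_Tg and 7714 to 8106 CPM in Has2_KO, so the labelled cell type was present in both groups. Markers of other liver cells moved the other way. Of the 20 macrophage markers all 19 that could be tested were lower, with sums of 16.3 to 18.5 CPM in HAS2_Tg and 712 to 767 CPM in Has2_KO, and Clec4f and Timd4 were at 0 in every HAS2_Tg library. All 20 sinusoidal endothelial markers were lower, with sums of 26.8 to 30.3 CPM in HAS2_Tg and 1190 to 1292 CPM in Has2_KO, and Gpihbp1 and Emcn were at 0 in every HAS2_Tg library. Of 10 testable hepatocyte markers 9 were lower, with sums of 26.2 to 27.3 CPM in HAS2_Tg and 64.2 to 82.3 CPM in Has2_KO, and Apoc3 was at 0 in every HAS2_Tg library. Most of the HAS2_Tg sum came from Trf, which averaged 22.1 CPM in HAS2_Tg and 25.6 CPM in Has2_KO and did not pass the test. The part of these other cells in the differences given below was not tested. Beside these marker counts, 20.2% of all genes tested were higher and 20.5% lower in HAS2_Tg (edgeR, adjusted p under 0.05).

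Promoter sequence was read for the elements through which the unfolded protein response is known to act. RefSeq windows of 300 bases (GRCm38.p6, 250 bases before and 50 after the start) were given for 34 of the 40 genes. The ER stress response element (ERSE), bound by ATF6 together with NF-Y, was searched on both strands as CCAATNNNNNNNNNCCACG. It was present in 9 of the 34 genes (26.5%), against 0.119% of all 32851 windows and 0.184% of the tested genes with a window. The list was made of genes that include those of this response, so the share describes the list and is not a test. These 10 elements, 2 of them in Hsp90b1, are shown because they mark the members with the letters of the classical element. Capitals mark the fixed letters and lower case the spacer of 9 bases, and each line is written in the direction of the element.
Hspa5 (chr2:34772025-34772043, plus strand): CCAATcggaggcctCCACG
Hsp90b1 (chr10:86705638-86705656, minus strand): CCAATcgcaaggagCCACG
Hsp90b1 (chr10:86705533-86705551, plus strand): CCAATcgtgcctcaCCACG
Calr (chr8:84847075-84847093, plus strand): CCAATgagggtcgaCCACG
Canx (chr11:50325800-50325818, minus strand): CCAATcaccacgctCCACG
Pdia6 (chr12:17266491-17266509, plus strand): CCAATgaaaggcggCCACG
Dnajc3 (chr14:118937827-118937845, plus strand): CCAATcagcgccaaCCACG
Creld2 (chr15:88819520-88819538, minus strand): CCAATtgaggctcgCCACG
Syvn1 (chr19:6046532-6046550, plus strand): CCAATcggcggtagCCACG
Derl3 (chr10:75893242-75893260, minus strand): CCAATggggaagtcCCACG

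Of the 9 genes that hold these letters, 2 were higher in HAS2_Tg (Creld2 and Derl3), 0 were lower and 7 did not pass the test, where 20.2% of all genes tested were higher and 20.5% lower. A share of 2 in 9 is near that background. A second form, ERSE-II, searched as ATTGGNCCACG after the first results were seen, was found in 2 of the 34 genes (Dnajb11 and Herpud1) (5.88%), against 0.0365% of all windows and 0.0774% of the tested genes with a window. The core of the ATF4 response element, TGATGNAA, was found in 4 genes (Trib3, Chac1, Asns and Herpud1; 11.8%), against 3.97% of all windows and 2.83% of the tested genes with a window. The core of the unfolded protein response element, TGACGTG, was found in Hspa5, Sec23a, Sec24d and Mia3 (11.8%), against 2.01% of all windows and 3.21% of the tested genes with a window. No match overlapped a match to another of these motifs. A match describes the letters only and is not evidence of binding, and 17 of the 34 genes held none of the 4 motifs.

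The whole windows of 5 genes follow, 5′ to 3′ on the strand of the gene. Pdia4, Dnajb9 and Ddit3 had the largest called changes of the chaperone list, in each direction, and of the ATF4 branch, and their windows hold none of the 4 motifs. Derl3 and Herpud1, the ERAD genes that rose, were added after their values were seen. Capitals mark the ERSE of Derl3, which lies on the opposite strand, and in Herpud1 first the ATF4 core, also on the opposite strand, and then ERSE-II.
Derl3 (chr10:75893148-75893447, plus strand): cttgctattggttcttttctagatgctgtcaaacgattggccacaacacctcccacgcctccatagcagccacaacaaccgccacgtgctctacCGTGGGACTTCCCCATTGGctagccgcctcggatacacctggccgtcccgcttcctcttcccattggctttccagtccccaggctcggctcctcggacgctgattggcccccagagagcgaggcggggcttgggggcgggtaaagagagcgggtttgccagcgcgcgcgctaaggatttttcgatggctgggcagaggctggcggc
Herpud1 (chr8:94386179-94386478, plus strand): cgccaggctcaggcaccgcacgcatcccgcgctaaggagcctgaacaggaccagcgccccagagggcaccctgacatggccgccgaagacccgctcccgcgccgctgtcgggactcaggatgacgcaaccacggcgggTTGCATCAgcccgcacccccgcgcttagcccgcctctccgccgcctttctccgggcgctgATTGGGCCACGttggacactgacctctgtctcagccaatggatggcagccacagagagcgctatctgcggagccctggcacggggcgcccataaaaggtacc
Ddit3 (chr10:127290543-127290842, plus strand): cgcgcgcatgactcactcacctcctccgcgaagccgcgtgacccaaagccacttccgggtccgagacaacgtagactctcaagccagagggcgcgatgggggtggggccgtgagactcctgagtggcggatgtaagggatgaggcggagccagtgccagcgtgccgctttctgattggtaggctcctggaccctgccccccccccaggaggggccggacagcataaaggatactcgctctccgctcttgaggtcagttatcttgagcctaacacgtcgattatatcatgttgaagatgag
Pdia4 (chr6:47813463-47813762, minus strand): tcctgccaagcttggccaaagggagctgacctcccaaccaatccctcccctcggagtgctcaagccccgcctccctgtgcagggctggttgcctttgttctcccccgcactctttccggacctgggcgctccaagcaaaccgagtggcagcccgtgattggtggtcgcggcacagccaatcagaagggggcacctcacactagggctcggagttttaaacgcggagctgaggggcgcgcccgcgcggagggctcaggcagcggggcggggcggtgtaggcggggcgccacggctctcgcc
Dnajb9 (chr12:44210019-44210318, minus strand): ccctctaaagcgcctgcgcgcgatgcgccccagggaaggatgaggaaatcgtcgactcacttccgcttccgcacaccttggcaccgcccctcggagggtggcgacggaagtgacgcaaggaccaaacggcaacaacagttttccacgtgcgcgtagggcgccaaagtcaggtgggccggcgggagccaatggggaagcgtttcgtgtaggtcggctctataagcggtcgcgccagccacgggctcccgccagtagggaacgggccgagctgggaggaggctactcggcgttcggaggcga

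Of the 40 genes, 13 differed between the genotypes at an adjusted p under 0.05 (edgeR quasi-likelihood test, Benjamini-Hochberg over all 13014 genes tested), which is 32.5% of them against 40.7% of all genes tested. In HAS2_Tg 8 were higher, against 20.2% of all genes tested, and 5 were lower, against 20.5%. The median log2 fold change of the 40 genes was 0.05, ranging from -1.35 (Ern1) to 2.38 (Derl3), and that of all genes tested was -0.01. Ern1 and Derl3 were the only members called with at least a 2-fold change, against 11.2% of all genes tested, and the other 38 changed by less than 1.5-fold. The 3 CPM values of the groups did not overlap for 16 members, 10 higher and 6 lower in HAS2_Tg, against 52.2% of all genes tested. With total counts in place of TMM scaling the median of all genes moved by -0.17. Then 5 members were higher and 16 lower, with a median of -0.12. Of all 13014 genes tested 1477 were then higher and 4827 lower. The split between higher and lower thus depended on the scaling, for the members and for all genes. In bulk RNA fewer cells of a type and less RNA per cell cannot be told apart.

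**Figure D1:**
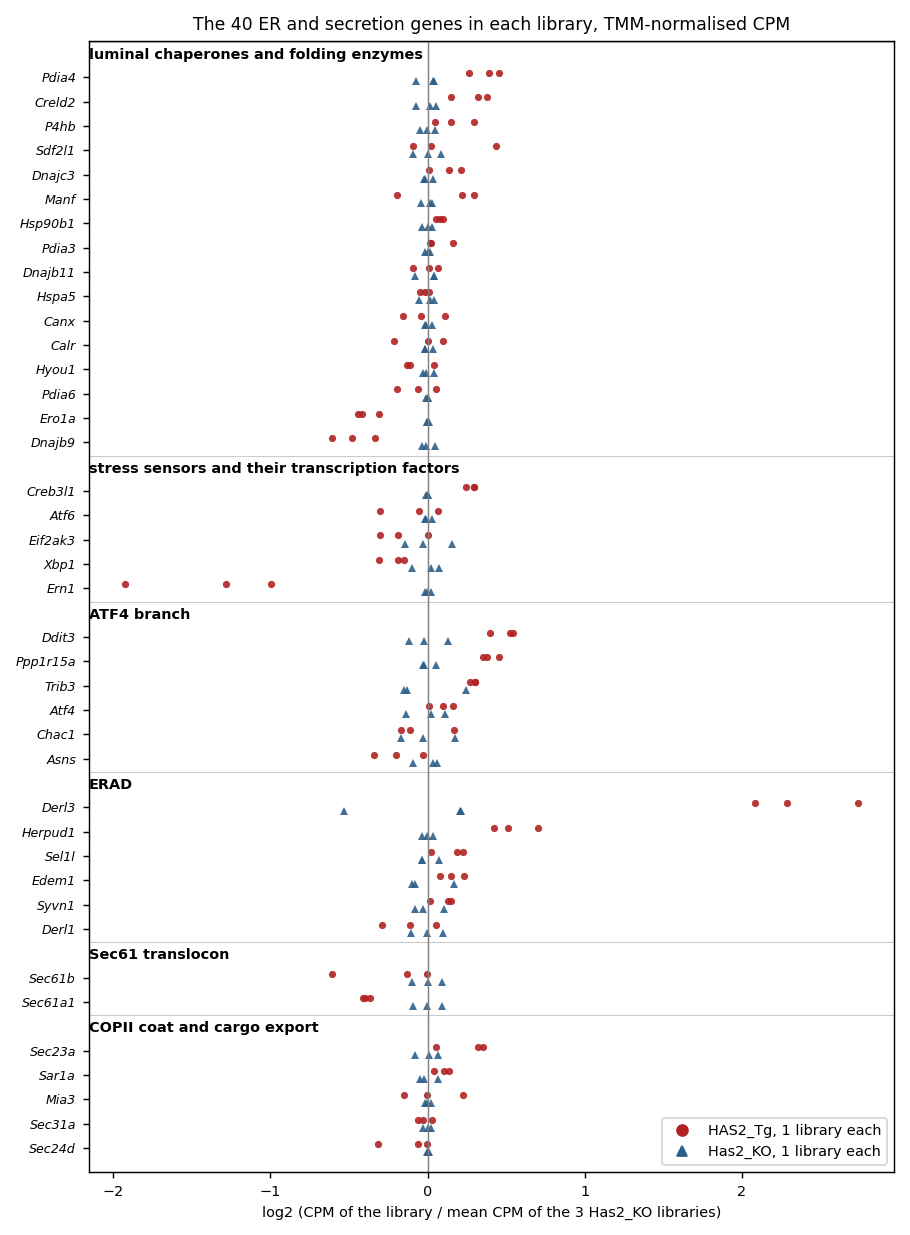
Level of each of the 40 genes in each library, as log2 of its CPM (TMM-normalised) over the mean CPM of the 3 Has2_KO libraries, with HAS2_Tg libraries as circles and Has2_KO libraries as triangles and genes grouped by role. Most genes lie around 0 in both groups, while Derl3 is far to the right and Ern1 far to the left in all 3 HAS2_Tg libraries.

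**Figure D2:**
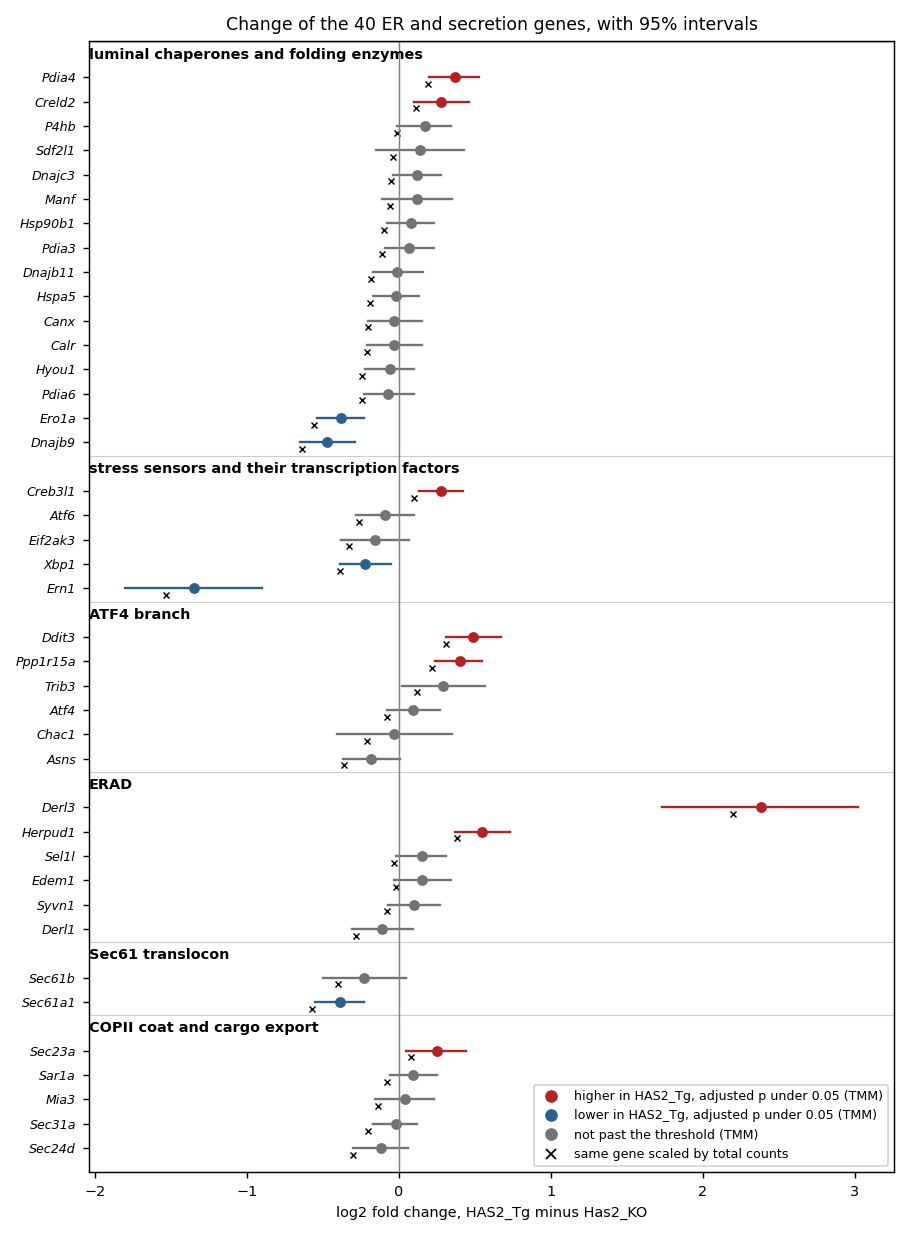
Log2 fold change of the 40 genes, HAS2_Tg minus Has2_KO, with 95% intervals from the edgeR fit, and the value with total counts as a small cross. The 8 genes called higher and the 5 called lower are coloured, and every cross lies to the left of its point.

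Among the luminal chaperones and folding enzymes, 4 of the 16 genes (25%) passed the test, against 40.7% of all genes tested. The abundant chaperones Hspa5, Hsp90b1, Calr and Canx were not among the 4. Pdia4 and Creld2 were higher and Dnajb9 and Ero1a lower in HAS2_Tg. The median log2 fold change of the 16 genes was 0.03 with TMM scaling and -0.14 with total counts, where 1 was higher and 6 were lower. Here and for each role below, TMM counts stand against 20.2% higher and 20.5% lower over all genes tested. Those with total counts stand against 1477 higher and 4827 lower of 13014 genes.

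Hspa5 encodes BiP, the Hsp70 chaperone that also holds the stress sensors inactive. Its level was 883, 864 and 900.2 CPM in HAS2_Tg libraries and 919, 861 and 903 CPM in Has2_KO libraries. The groups overlapped, and the log2 fold change was -0.02 with a 95% interval from -0.17 to 0.13 (adjusted p = 0.856). With total counts it was -0.19 (adjusted p = 0.0339). Hsp90b1, which encodes the luminal Hsp90 GRP94, had 1301, 1262 and 1283 CPM in HAS2_Tg libraries and 1217, 1187 and 1240 CPM in Has2_KO libraries. All 3 HAS2_Tg values were above those of Has2_KO, but by a log2 fold change of only 0.08 (adjusted p = 0.414), and on the FPKM scale the order was the reverse. Hyou1, a nucleotide exchange factor for BiP, had a log2 fold change of -0.06 (interval -0.22 to 0.10).

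The lectin chaperones Calr and Canx hold glycoproteins during folding. Calr had 1054, 850.1 and 988 CPM in HAS2_Tg libraries and 1007, 974 and 973 CPM in Has2_KO libraries. Canx had 801, 869.8 and 965 CPM in HAS2_Tg libraries and 888, 883 and 912 CPM in Has2_KO libraries. For both genes the HAS2_Tg libraries were spread on either side of the Has2_KO values, and the log2 fold change was -0.03. HAS2_Tg replicate 4 was the highest library for Calr and the lowest for Canx.

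Of the 4 disulfide isomerases among the 40 genes (Pdia3, Pdia4, Pdia6 and P4hb), Pdia4 passed the test. Pdia5, outside the 40 genes and named after its value was seen, was also higher (log2 fold change 0.46, adjusted p = 0.00057). Pdia4, a large family member with several thioredoxin domains, had 213, 187 and 204 CPM in HAS2_Tg libraries and 159.9, 159 and 148 CPM in Has2_KO libraries. The groups were apart, with a log2 fold change of 0.37 ± 0.08 (SE) and an adjusted p of 0.00134, although limma on log2(FPKM + 1) without a filter on low values gave an adjusted p of 0.0611. P4hb, the isomerase that is also the beta subunit of collagen prolyl 4-hydroxylase, had 1098, 923 and 992 CPM in HAS2_Tg libraries and 925, 893 and 863 CPM in Has2_KO libraries. One HAS2_Tg library lay within the Has2_KO range, and the log2 fold change of 0.17 had an interval from -0.01 to 0.34 (adjusted p = 0.115). Pdia3, which works with the lectin chaperones, had a log2 fold change of 0.07 (adjusted p = 0.497), and Pdia6 one of -0.07 (adjusted p = 0.536). Every HAS2_Tg value of Pdia3 was above those of Has2_KO on the CPM scale and below them on the FPKM scale.

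Ero1a passes oxidising equivalents to the disulfide isomerases. It had 77.6, 85.0 and 79.0 CPM in HAS2_Tg libraries and 105, 105 and 106 CPM in Has2_KO libraries. Every HAS2_Tg library was below the Has2_KO range, and Ero1a fell by 0.38 ± 0.07 on the log2 scale (SE, adjusted p = 0.000646).

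The J-domain proteins, which steer BiP to its clients, were unlike each other. Dnajb9, the ERdj4 that restrains IRE1 in cultured mammalian cells and is a known target of spliced XBP1, had 58.6, 64.0 and 70.7 CPM in HAS2_Tg libraries and 88.4, 92.2 and 86.9 CPM in Has2_KO libraries. No value overlapped, and Dnajb9 fell by 0.47 ± 0.08 on the log2 scale (SE, adjusted p = 0.000347). Dnajb11 had a log2 fold change of -0.01 (adjusted p = 0.953). Dnajc3, also known as an inhibitor of the kinase PERK, had a log2 fold change of 0.12 (adjusted p = 0.214), and only without HAS2_Tg replicate 4 did it pass the test (0.17, adjusted p = 0.0361).

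Among the small luminal proteins of the stress response, Creld2 had 60.3, 51.4 and 57.9 CPM in HAS2_Tg libraries and 44.1, 47.0 and 48.3 CPM in Has2_KO libraries. All HAS2_Tg values were above those of Has2_KO, and the log2 fold change was 0.28 ± 0.09 (SE, adjusted p = 0.0161). The call was lost with total counts (adjusted p = 0.31), in the 3 FPKM fits (up to 0.32), without Has2_KO replicate 7 (0.0907) and without Has2_KO replicate 8 (0.0507). Manf, a secreted protein that binds BiP, had 189, 135 and 179.6 CPM in HAS2_Tg libraries and 156, 157 and 150.0 CPM in Has2_KO libraries. HAS2_Tg replicate 5 lay below and the other 2 above every Has2_KO library, with a log2 fold change of 0.12 (adjusted p = 0.392) that became 0.26 without replicate 5 (adjusted p = 0.0235). Sdf2l1, part of a BiP cochaperone complex, had a log2 fold change of 0.14 (adjusted p = 0.444).

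Summed over the 16 genes, chaperones and folding enzymes reached 7470, 6923 and 7415 CPM in HAS2_Tg libraries and 7156, 6989 and 7100 CPM in Has2_KO libraries. The sums overlapped. As a share of all counts, before TMM scaling, they made up 0.694%, 0.664% and 0.694% in HAS2_Tg libraries and 0.762%, 0.743% and 0.752% in Has2_KO libraries. On that scale every HAS2_Tg library was below the Has2_KO range.

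Of the stress sensors and their transcription factors, Ern1 and Xbp1 were lower and Creb3l1 higher in HAS2_Tg, while Atf6 and Eif2ak3 did not pass the test. The median of the 5 genes was -0.16 with TMM scaling and -0.33 with total counts, where 0 were higher and 4 lower. Ern1 encodes IRE1, the kinase and endoribonuclease that splices Xbp1 mRNA. It had 27.5, 42.8 and 52.3 CPM (307, 491 and 599 counts) in HAS2_Tg libraries and 103, 106 and 104 CPM (1357, 1397 and 1369 counts) in Has2_KO libraries. The Has2_KO libraries lay close together and the HAS2_Tg libraries were spread widely below them, with replicate 4 lowest. The log2 fold change was -1.35 ± 0.19 (SE, interval -1.80 to -0.90, adjusted p = 0.000753), or 0.392 of the Has2_KO level. Without HAS2_Tg replicate 4 it was -1.14 (adjusted p = 1.19e-10), and it passed the test under each of the 17 alternatives. Macrophage and endothelial marker sums differed in the same direction, as given above, and their part in the level of Ern1 was not tested.

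Xbp1, the transcription factor whose mRNA IRE1 splices, had 110.2, 113 and 101 CPM in HAS2_Tg libraries and 117, 127 and 132 CPM in Has2_KO libraries. The groups did not overlap, but the gap between them was small beside the spread within each. Xbp1 fell by 0.22 ± 0.08 on the log2 scale (SE, adjusted p = 0.0383), and the call was lost without HAS2_Tg replicate 6 (0.0967), Has2_KO replicate 8 (0.117) or Has2_KO replicate 9 (0.181). The files give 1 value for the gene, over 2 RefSeq transcripts, so spliced and unspliced Xbp1 were not told apart. The length given for the gene in the deposited files, which differed slightly between libraries, was 2259.67, 2263.46 and 2251.27 bases in HAS2_Tg libraries and 2261.35, 2264.0 and 2256.26 bases in Has2_KO libraries, and overlapped between the groups.

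Atf6 had 101, 120.2 and 130.3 CPM in HAS2_Tg libraries and 124, 127 and 123 CPM in Has2_KO libraries. The HAS2_Tg values reached from below to above those of Has2_KO, with a log2 fold change of -0.09 (interval -0.28 to 0.10, adjusted p = 0.451). Eif2ak3 (PERK) had 26.7, 28.9 and 33.0 CPM in HAS2_Tg libraries and 29.8, 36.7 and 32.3 CPM in Has2_KO libraries, also overlapping, with a log2 fold change of -0.16 (interval -0.38 to 0.07, adjusted p = 0.258).

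Creb3l1 encodes OASIS, a membrane-bound relative of ATF6 that drives collagen genes in bone-forming cells. It had 376, 364 and 376 CPM in HAS2_Tg libraries and 308, 305 and 308 CPM in Has2_KO libraries. The groups were far apart for their spread, with a log2 fold change of 0.28 ± 0.07 (SE, adjusted p = 0.00436). With total counts the difference was 0.10 (adjusted p = 0.22), and in the 3 FPKM fits it did not pass the test either.

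In the ATF4 branch, Ddit3 and Ppp1r15a were higher in HAS2_Tg, and the other genes, Atf4 among them, did not pass the test. The median of the 6 genes was 0.19 with TMM scaling and 0.02 with total counts, where Ddit3 and Ppp1r15a stayed higher and Asns was lower. Atf4 is controlled largely at translation. It had 418, 392 and 437 CPM in HAS2_Tg libraries and 421, 396 and 354 CPM in Has2_KO libraries, overlapping, with a log2 fold change of 0.09 (adjusted p = 0.392).

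Ddit3 encodes CHOP, a transcription factor of prolonged stress. It had 98.5, 89.2 and 97.3 CPM in HAS2_Tg libraries and 66.7, 74.2 and 62.3 CPM in Has2_KO libraries. Every HAS2_Tg library was above every Has2_KO library, with a log2 fold change of 0.49 ± 0.08 (SE, adjusted p = 0.000269). Its span overlaps those of Mbd6 and Mars1, and no source used here gives the strand setting of the counting. Whether reads from the stretches they share were told apart is therefore not known. Mbd6 had a log2 fold change of 0.02 and Mars1 of 0.13, and neither passed the test. The spans of Hspa5, Pdia3, Pdia6, Ppp1r15a and Syvn1 also overlap 1 counted gene each (Rabepk, Catsper2, Atp6v1c2, Tulp2 and Mrpl49 in turn), with the same limit.

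Ppp1r15a encodes GADD34, which brings a phosphatase to eIF2 alpha and so restores translation. It had 268, 263 and 283 CPM in HAS2_Tg libraries and 214, 203 and 202 CPM in Has2_KO libraries. The groups were well apart, with a log2 fold change of 0.40 ± 0.07 (SE, adjusted p = 0.000403). With total counts it was 0.22 (adjusted p = 0.0185).

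Other targets of ATF4 showed no common direction. Trib3, a pseudokinase induced by ATF4 and CHOP, had 12.9, 12.6 and 12.9 CPM in HAS2_Tg libraries and 12.4, 9.55 and 9.45 CPM in Has2_KO libraries. The groups did not overlap, although Has2_KO replicate 7 came close, and the log2 fold change of 0.29 ± 0.13 (SE) had an adjusted p of 0.0838, or 0.0272 without that library. Asns, asparagine synthetase, had 61.3, 69.0 and 55.6 CPM in HAS2_Tg libraries and 71.9, 73.2 and 65.9 CPM in Has2_KO libraries. One HAS2_Tg library lay within the Has2_KO range, and the log2 fold change was -0.18 (adjusted p = 0.119). Chac1, a glutathione-degrading enzyme, was near 5 CPM in both groups, with a log2 fold change of -0.03 and an interval from -0.41 to 0.35. The windows of Trib3, Asns and Chac1 hold the ATF4 core, while that of Ddit3 does not. Sequence more than 250 bases before the start was not searched, so an element of Ddit3 further upstream would be missed.

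**Figure D3:**
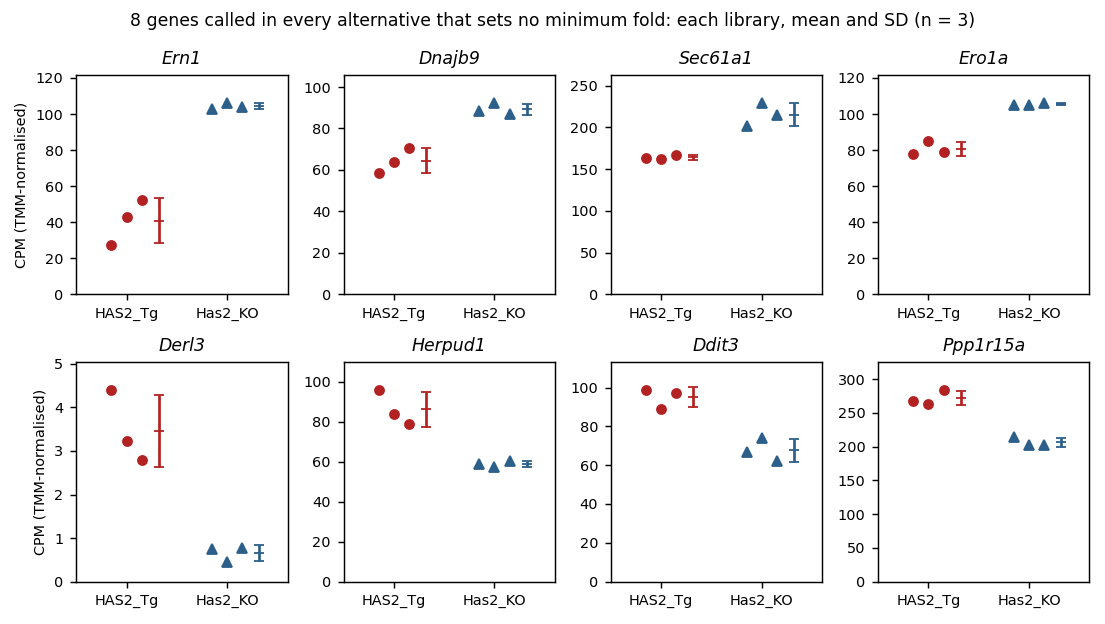
CPM (TMM-normalised) of the 8 genes that kept their call in every alternative they entered except the test against a fold of 1.5 (which Ern1 and Derl3 also passed), per library, with the mean and SD of each group (n = 3) and axes from 0. Ern1, Dnajb9, Sec61a1 and Ero1a are lower in all HAS2_Tg libraries (circles), and Derl3, Herpud1, Ddit3 and Ppp1r15a are higher in all of them than in any Has2_KO library (triangles).

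Of the 6 ERAD genes, Herpud1 and Derl3 were higher in HAS2_Tg, and the core ligase genes did not pass the test. The median of the list was 0.15 with TMM scaling and -0.02 with total counts, where 2 were higher and 1 was lower. Herpud1 encodes a membrane protein that gathers ERAD complexes. It had 95.7, 83.9 and 79.0 CPM in HAS2_Tg libraries and 58.8, 57.4 and 60.4 CPM in Has2_KO libraries. All HAS2_Tg libraries were above the narrow Has2_KO range, with a log2 fold change of 0.55 ± 0.08 (SE, adjusted p = 9.56e-05) and a range of 0.36 to 0.61 over the alternatives.

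Derl3 encodes a derlin, a rhomboid-like membrane protein of the retrotranslocation machinery. It had 49, 37 and 32 counts (4.39, 3.22 and 2.79 CPM) in HAS2_Tg libraries and 10, 6 and 10 counts (0.759, 0.455 and 0.762 CPM) in Has2_KO libraries. It was low in both groups and higher in every HAS2_Tg library, with a log2 fold change of 2.38 ± 0.30 (SE, interval 1.73 to 3.02, adjusted p = 1.48e-05). It did not pass the stricter filter on low counts. On the log2(FPKM + 1) scale, which understates the change of low genes, the difference was 1.17. Markers of B and plasma cells, which are rich in secretory machinery, summed to 17.3 to 18.2 CPM in HAS2_Tg and 24.7 to 27.6 CPM in Has2_KO, with 0 of the 3 testable markers higher and 2 lower. The largest share of these sums came from Sdc1, which averaged 13.2 CPM in HAS2_Tg and 14.8 CPM in Has2_KO and did not pass the test. The plasma cell marker Tnfrsf17 had 0 counts in every HAS2_Tg library and 0, 0 and 1 count in Has2_KO libraries, and Jchain averaged 0.47 CPM in HAS2_Tg and 0.709 CPM in Has2_KO. The part of such cells in the level of Derl3 was not tested. Derl1, the widely expressed derlin, had 87.3, 97.9 and 76.9 CPM in HAS2_Tg libraries and 87.5, 101 and 94.1 CPM in Has2_KO libraries, overlapping, with a log2 fold change of -0.11 (adjusted p = 0.376).

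The ligase Syvn1 (HRD1), its adaptor Sel1l and the mannose-trimming protein Edem1 form the lectin-guided route of ERAD. Sel1l had 184, 212 and 207 CPM in HAS2_Tg libraries and 177, 177 and 191 CPM in Has2_KO libraries, with a log2 fold change of 0.15 (adjusted p = 0.149) that passed the test only without HAS2_Tg replicate 4 (0.20, adjusted p = 0.0158). Syvn1 had a log2 fold change of 0.10 (interval -0.07 to 0.27) and Edem1 of 0.15 (interval -0.03 to 0.34). The groups overlapped for all 3 genes.

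Sec61a1, which encodes the pore of the translocon, had 163, 162 and 167 CPM in HAS2_Tg libraries and 202, 229 and 215 CPM in Has2_KO libraries. The HAS2_Tg libraries were nearly equal and all below Has2_KO, and Sec61a1 fell by 0.39 ± 0.07 on the log2 scale (SE, adjusted p = 0.000605). Sec61b, the small beta subunit, had 38.7, 35.4 and 25.4 CPM in HAS2_Tg libraries and 38.8, 36.2 and 41.4 CPM in Has2_KO libraries. HAS2_Tg replicate 6 was the lowest by far, the groups overlapped, and the log2 fold change was -0.23 ± 0.13 (SE, adjusted p = 0.173). It was -0.36 without HAS2_Tg replicate 4 (adjusted p = 0.0126) and -0.07 without replicate 6 (adjusted p = 0.614).

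Of the 4 COPII coat genes and the cargo export gene Mia3, Sec23a passed the test, as the only one of the 5. The median of the 5 genes was 0.04 with TMM scaling and -0.14 with total counts, where 0 were higher and 2 lower. Sec23a, a subunit of the inner coat, had 55.6, 67.0 and 68.5 CPM in HAS2_Tg libraries and 50.7, 54.0 and 56.2 CPM in Has2_KO libraries. HAS2_Tg replicate 4 lay within the Has2_KO range, and the log2 fold change was 0.25 ± 0.09 (SE, adjusted p = 0.0411). The call was lost under 13 of 17 alternatives, among them total counts (0.08, adjusted p = 0.53) and the removal of any library except HAS2_Tg replicate 4.

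Sec24d, the cargo-binding subunit of the coat, had 112, 134 and 139 CPM in HAS2_Tg libraries and 139.7, 140.2 and 139 CPM in Has2_KO libraries. The highest HAS2_Tg library was next to the lowest Has2_KO library, and the log2 fold change was -0.12 (adjusted p = 0.272). Sec31a, of the outer coat, had 261, 277 and 266 CPM in HAS2_Tg libraries and 267, 276 and 273 CPM in Has2_KO libraries. Sar1a, the GTPase that starts coat assembly, had a log2 fold change of 0.09 (interval -0.06 to 0.25).

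Mia3 (TANGO1) links collagen to the forming COPII carrier. It had 255, 282 and 331 CPM in HAS2_Tg libraries and 287, 282 and 279 CPM in Has2_KO libraries. The HAS2_Tg values reached from below to above those of Has2_KO, with a log2 fold change of 0.04 (interval -0.16 to 0.23, adjusted p = 0.784).

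On the FPKM scale, per gene length, the order of levels was nearly shared by the genotypes. Calr was highest, with a mean of 468 FPKM in HAS2_Tg and 540.0 FPKM in Has2_KO, followed by Hsp90b1 with 436 FPKM in HAS2_Tg and 466 FPKM in Has2_KO. P4hb came next in HAS2_Tg (371 FPKM, against 373 FPKM in Has2_KO) and Hspa5 next in Has2_KO (327 FPKM in HAS2_Tg, against 374 FPKM in Has2_KO). The ranges of these 2 genes overlapped in Has2_KO. In HAS2_Tg they did not, with 348 to 400.5 FPKM for P4hb and 322 to 332 FPKM for Hspa5. The lowest were Trib3, with 5.89 FPKM in HAS2_Tg and 5.43 FPKM in Has2_KO, Chac1, with 2.76 FPKM in HAS2_Tg and 3.18 FPKM in Has2_KO, and Derl3, with 2.47 FPKM in HAS2_Tg and 0.53 FPKM in Has2_KO. Among the sensors Ern1 stood at rank 36 of the 40 in HAS2_Tg (9.62 FPKM) and rank 31 in Has2_KO (27.7 FPKM). Atf6 was above Ern1 in HAS2_Tg, with 14.6 FPKM, and below it in Has2_KO, with 17.5 FPKM. PERK transcripts were the lowest of the 3 sensors in both groups, at 6.11 FPKM in HAS2_Tg and 7.69 FPKM in Has2_KO.

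Ratios of FPKM within a library do not depend on the scaling between libraries. Ddit3 relative to Atf4 was 0.479, 0.462 and 0.452 in HAS2_Tg libraries and 0.322, 0.381 and 0.357 in Has2_KO libraries. Herpud1 relative to Hspa5 was 0.148, 0.132 and 0.12 in HAS2_Tg libraries and 0.0871, 0.0909 and 0.0911 in Has2_KO libraries. Both ratios were higher in every HAS2_Tg library.

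Dnajb9 relative to Hspa5 was lower in every HAS2_Tg library, at 0.0907, 0.101 and 0.107, against 0.131, 0.146 and 0.132 in Has2_KO libraries. Hspa5 relative to Sec61a1 was 6.49, 6.42 and 6.47 in HAS2_Tg libraries and 5.46, 4.51 and 5.04 in Has2_KO libraries, without overlap. Sec24d relative to Sec23a was 2.13, 2.12 and 2.15 in HAS2_Tg libraries and 2.92, 2.75 and 2.62 in Has2_KO libraries. That ratio was nearly constant among the HAS2_Tg libraries, while Calr relative to Canx ranged there from 2.18 to 2.94 and overlapped with Has2_KO (2.38 to 2.53). These ratios show unequal differences of 2 genes, not which of them differed.

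The members varied more among HAS2_Tg libraries than among Has2_KO libraries. Between pairs of libraries their median absolute log2 ratio lay between 0.11 and 0.14 in HAS2_Tg and between 0.05 and 0.06 in Has2_KO. Over all genes tested it was 0.14 to 0.21 in HAS2_Tg, against 0.09 to 0.10 in Has2_KO. The largest within-group difference of a member was that of Ern1, at -0.93 between HAS2_Tg replicates 4 and 6. HAS2_Tg replicate 4 was the highest of all 6 libraries for 14 members and the lowest for 11. Without it 10 members were higher and 6 lower. Over all genes tested, leaving out 1 library in turn gave 4188 to 5624 calls, against 5298 with all 6 libraries. The shares of all genes that match these member counts are not given here, so the counts do not set the members apart.

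**Figure D4:**
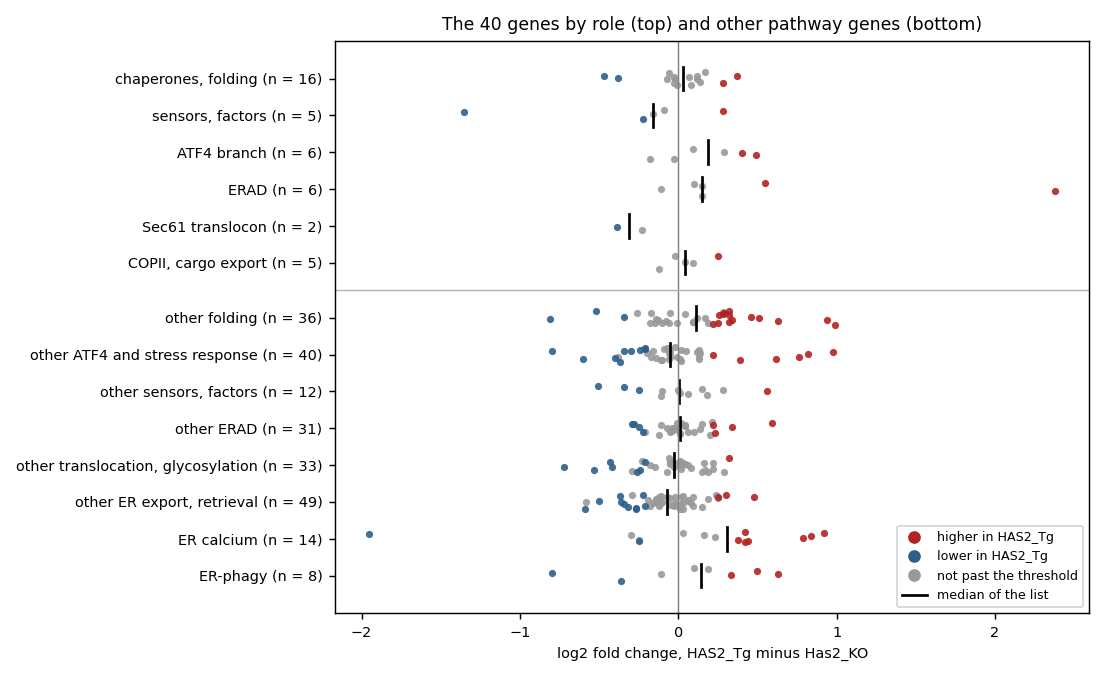
Log2 fold change, HAS2_Tg minus Has2_KO, of each of the 40 genes by role (top) and of 223 further tested genes of the same pathways by list (bottom), with each list's median as a black bar and n the number tested. The medians lie between -0.16 and 0.19, except for the ER calcium list at 0.31 and the Sec61 pair at -0.31.

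Beyond the 40 genes, 223 tested genes in 8 lists of the same pathways gave 39 higher and 40 lower, or 35.4% called, below the 40.7% called over all genes tested. With TMM scaling the counts of the single lists stand against 20.2% higher and 20.5% lower over all genes tested. With total counts they stand against 1477 higher and 4827 lower of 13014 genes. Of 36 other ER folding genes 14 were higher and 3 lower with TMM scaling (median 0.11), but 5 were higher and 11 lower with total counts (median -0.07). Qsox1, a sulfhydryl oxidase, had the largest increase, with 289.6 ± 36.5 CPM in HAS2_Tg, against 146 ± 3.96 CPM in Has2_KO (SD, n = 3 each), and a log2 fold change of 0.99 (edgeR adjusted p = 4.52e-07). Fkbp11, a prolyl isomerase, had the largest decrease, at -0.81 (adjusted p = 0.00202). Fkbp7 (0.94, adjusted p = 1.97e-06) and Fkbp9 (0.63, adjusted p = 1.59e-05), prolyl isomerase genes of the same list, were higher and were chosen with their values in view.

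The 40 other genes of the ATF4 and integrated stress response were divided, with 6 higher and 9 lower (median -0.05), and 4 higher and 20 lower with total counts (median -0.23). Nupr1, a small stress-induced nuclear protein, averaged 118 ± 14.5 CPM in HAS2_Tg, against 59.6 ± 1.70 CPM in Has2_KO (SD, n = 3 each), with a log2 fold change of 0.98 (adjusted p = 5.31e-07). Cebpb, a partner of ATF4 and CHOP, averaged 42.2 ± 5.35 CPM in HAS2_Tg, against 73.5 ± 4.13 CPM in Has2_KO (SD, n = 3 each), with a log2 fold change of -0.80 (adjusted p = 7.7e-06). Named after their values were seen, Atf5 (0.82) and the cystine transporter gene Slc7a11 (0.76) were higher, and Gdf15 (-0.60) and Ddit4 (-0.37) lower.

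Of 12 other sensor and transcription factor genes 1 was higher and 3 were lower (median 0.01). Creb3 (0.56, adjusted p = 0.000132) was the one that was higher, and its relative Creb3l2 had the largest decrease (-0.51, adjusted p = 0.00697). Of 31 other ERAD genes 4 were higher and 4 lower (median 0.01), but 1 higher and 9 lower with total counts. The mannosidase gene Man1c1 had the largest increase (0.59, adjusted p = 1.28e-05) and the ligase gene Rnf185 the largest decrease (-0.29, adjusted p = 0.00706).

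Of 33 other genes of translocation, signal peptidase and oligosaccharyltransferase 1 was higher and 7 were lower (median -0.03), with 0 higher and 14 lower with total counts. Spcs3, a signal peptidase subunit, averaged 54.7 ± 2.35 CPM in HAS2_Tg, against 90.1 ± 5.21 CPM in Has2_KO (SD, n = 3 each), with a log2 fold change of -0.72 (adjusted p = 3.1e-06). Stt3b, a catalytic subunit of oligosaccharyltransferase, was the one that was higher (0.32, adjusted p = 0.0018). The 49 other genes of ER export, cargo receptors and retrieval had 3 higher and 10 lower (median -0.07), and 0 higher and 26 lower with total counts. Sec24a, another cargo-binding coat subunit, had the largest decrease (-0.59, adjusted p = 0.000346), and the COPI subunit gene Copz2 the largest increase (0.48, adjusted p = 0.0117). Sec23b (-0.50, adjusted p = 0.000206), the paralogue of Sec23a, is named after its value was seen.

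The 14 genes of the ER calcium store and of secretory calcium-binding proteins had 7 higher and 2 lower and a median of 0.31 (0.13 with total counts, where 7 were higher and 4 lower). Stim1, the sensor of ER calcium, had 218, 238 and 256 CPM in HAS2_Tg libraries and 123, 123 and 129 CPM in Has2_KO libraries. Its groups were far apart, with a log2 fold change of 0.92 ± 0.08 (SE, adjusted p = 1.9e-07). Itpr3, an ER calcium release channel, had 2.24, 3.05 and 2.88 CPM in HAS2_Tg libraries and 9.57, 11.4 and 10.7 CPM in Has2_KO libraries, and fell by 1.95 ± 0.17 on the log2 scale (SE, adjusted p = 2.39e-07). Of 8 ER-phagy receptors 3 were higher and 2 lower (median 0.15), and 2 higher and 3 lower with total counts. Calcoco1 had the largest increase (0.63, adjusted p = 2.46e-05) and Retreg1 the largest decrease (-0.80, adjusted p = 0.00444).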

How the data were processed

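RNA of 6 libraries was measured by sequencing. Per the submitters' processing notes, the authors counted with RSEM on mm10. Its version, the annotation release and the strand setting are not given in the sources used here. Per the file headers, each deposited file holds an expected count, an FPKM value, a length and RefSeq transcripts per NCBI gene identifier. The expected counts are the authors' estimates of reads per gene, and the FPKM values were scaled by the authors for gene length and depth. The deposited files list no value of 0, so genes absent from a library were set to 0.

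Of 17909 identifiers 17857 were named through the reference gene tables. Expected counts were rounded, filtered with filterByExpr (edgeR 4.0.16), scaled by TMM and compared by edgeR's robust quasi-likelihood F-test (two-sided), and p-values were adjusted by Benjamini-Hochberg over 13014 genes, with a threshold of 0.05. Fold changes are HAS2_Tg minus Has2_KO. SE values were taken as the absolute log2 fold change over the square root of F, and intervals are at 95%. CPM values are TMM-normalised. Between libraries of a group the chi-square per degree of freedom was 2.31 to 31.6, above what sampling alone gives, and each group was taken as 3 libraries.

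The members and all gene lists were chosen with earlier results of these data known. All 40 members are named, and of each further list the called genes with the largest change in each direction where the group with more had a mean of 5 CPM or over. The lists matched 227 of 229 further pathway genes and 108 of 122 cell type markers. Promoter windows come from RefSeq (GRCm38.p6), and protein sequences were not used here. No test of a list was run.

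As alternatives, TMM was replaced by total counts, by upper-quartile factors and by the size factors of DESeq2. The low-count filter was dropped, or tightened to 1 CPM throughout a group with a mean of at least 5 CPM. The test was replaced by the Wald test of DESeq2, by limma on log2(FPKM + 1) with and without an FPKM minimum of 1 in 3 libraries, and by limma on log2(FPKM + 0.1) with it. A stricter adjusted p of 0.01, a test against a fold of 1.5 and fits with 1 library left out were also run. The fit was tested on simulated data. Versions were limma 3.58.1 and DESeq2 1.42.0 in R 4.3.3, with matplotlib 3.10.9, scipy 1.17.1, numpy 2.4.6 and pandas 2.3.3 in Python 3.11.15.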

Additional observations from a re-analysis of the deposited data

How the results depend on the processing

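Over the alternatives no called gene changed direction, and of 678 values of the members 598 kept their side of the threshold, 39 lost the call and 41 gained it. Ern1 and Derl3 kept their call wherever they were tested, and 8 of the 13 called genes kept it in all but the test against a fold of 1.5. Without normalisation for composition fewer members were higher and more were lower. With total counts this held over all genes tested too, with 1477 higher and 4827 lower of 13014, against 2625 and 2673 with TMM scaling. The 8 members higher and 5 lower became 5 and 16 with total counts, 5 and 14 with limma on log2(FPKM + 1), 5 and 14 on log2(FPKM + 0.1), 4 and 11 on log2(FPKM + 1) without a filter, and 1 and 1 in the test against a fold of 1.5. Total counts and FPKM moved the median of all genes by -0.17 to -0.18. In the FPKM fits the median log2 fold change was -0.15 to -0.17 over all genes and -0.13 over the members. The higher and lower counts over all genes in those fits are not given here, so their member counts do not set the members apart. Over all genes the 5298 calls became 1597 in the test against a fold of 1.5. Leaving out 1 library in turn gave 4188 to 5624 genes, with 6 to 10 members higher and 4 to 6 lower. Chac1 and Derl3 did not pass the stricter filter, which left 38 members. No paired analysis was possible because the groups share no replicate numbers. With 6 to 10 counts per Has2_KO library, Derl3 is limited by depth, and 3 libraries per group limit the differences that could be detected.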
